A study of Mus musculus with 29 samples.

Results

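The clustered protocadherin genes are the mouse genes whose symbols begin with Pcdha, Pcdhb or Pcdhg, and they lie in 3 neighboring clusters, alpha, beta and gamma, on chromosome 18. They were chosen by symbol in the gene annotation of the mm9 assembly, which gave 25 member genes of 37310 annotated genes. The region examined ran from 50 kb before the first member to 50 kb after the last, chr18:37039939-38051527, a length of 1012 kb. It held 47 of the 175162 kept summits in the 9 deposited lists, a summit being the highest point of a ChIP-seq peak and a kept summit one that the authors retained in their summit list.

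The study asked how Gfi1 and Pou4f3 change the DNA binding of Atoh1 in mouse embryonic stem cells that were driven towards sensory hair cells or neurons. The 6 lines, all derived from the A2loxCre parental line, carried Dox-inducible transgenes: iAtoh1 (Atoh1 alone), iG+A (Gfi1 and Atoh1), iP+A (Pou4f3 and Atoh1), iGPA (Gfi1, Pou4f3 and Atoh1), iPou4f3 (Pou4f3 alone) and iG+P (Gfi1 and Pou4f3), each with a Venus reporter. Embryoid bodies (EBs) of every line received 2 µg/ml doxycycline (Dox) for 48 h and were collected at day 6, so the input DNA libraries that served as controls also came from induced cells. Of the 29 libraries, 17 were ChIP and 12 were input.

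Atoh1 was recovered through a FLAG tag in the 4 lines that carried it, Pou4f3 through a MYC tag in the 4 lines that carried it, and Gfi1 with an antibody to the untagged protein in iGPA only. The transgenes were overexpressed from a Dox-responsive cassette and not from their own loci, and EBs hold many cell types, so a summit shows binding somewhere in a mixed population. Each list was called by the authors on merged replicates, except Gfi1, which rested on 1 ChIP library. No replicate spread can therefore be given for any value here, no test between lists was made, and each interval covers counting error only. The lists of iGPA share their input libraries with each other, as do those of iP+A.

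Clustered protocadherins are cadherin-like cell surface proteins that neurons use as an identity label. In the alpha and gamma clusters a series of large variable exons, each with its own promoter, is spliced to a few shared exons that encode the common end of the cytoplasmic tail, while each beta gene is a single large exon. A neuron expresses a small set of variable exons, and promoter choice is known to depend on DNA methylation, on CTCF and cohesin, and on distant enhancers, among them a control region downstream of the gamma cluster. Atoh1 is a basic helix-loop-helix factor that binds E-boxes, and Pou4f3 is a POU-homeodomain factor. Gfi1 is a zinc-finger factor known as a repressor, and the study proposes that it also helps Atoh1 to activate genes.

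The annotation did not give each variable exon a gene of its own. It listed 2 alpha genes with 11 transcripts, 22 beta genes with 26 transcripts and 1 gamma gene with 10 transcripts. Most alpha variable exons were filed as transcripts of Pcdha11, and all gamma variable exons as transcripts of Pcdhgc5. For comparison, the RefSeq table of the later build GRCm38.p6 counts 14 alpha, 22 beta and 22 gamma genes, so several variable exons have no start of their own in the mm9 annotation. Variable exons are therefore named here by transcript (Pcdha11-202, Pcdhgc5-208), and these names do not tell which protocadherin isoform an exon encodes.

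The summits were sparse over the alpha and beta clusters and crowded at the far end of gamma. The alpha cluster held 4 summits, all from Atoh1 lists, which is 15.5 per Mb over its 257 kb. The beta cluster held 3 summits, all from Pou4f3 lists, or 11.7 per Mb over 256 kb. The gamma cluster held 19 summits, of which 11 came from Atoh1 lists, 7 from Pou4f3 lists and 1 from the Gfi1 list, or 113 per Mb.

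The flanks differed as well. The 50 kb before alpha held 0 summits, whereas the 50 kb after gamma held 12, of which 11 came from Atoh1 lists and 1 from a Pou4f3 list. The 77.3 kb between alpha and beta held 1 summit, from Gfi1. The 153 kb between beta and gamma held 8 summits, 5 of them Pou4f3. Genome words of 32 bases that occur once also varied along the region: 77.4% of positions in alpha, 79.5% in beta and 67.6% between beta and gamma, against 93.5% in gamma and 97.4% after it. The study kept only reads with a high mapping quality, and the part of uniqueness in the summit counts was not tested.

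**Figure D1:**
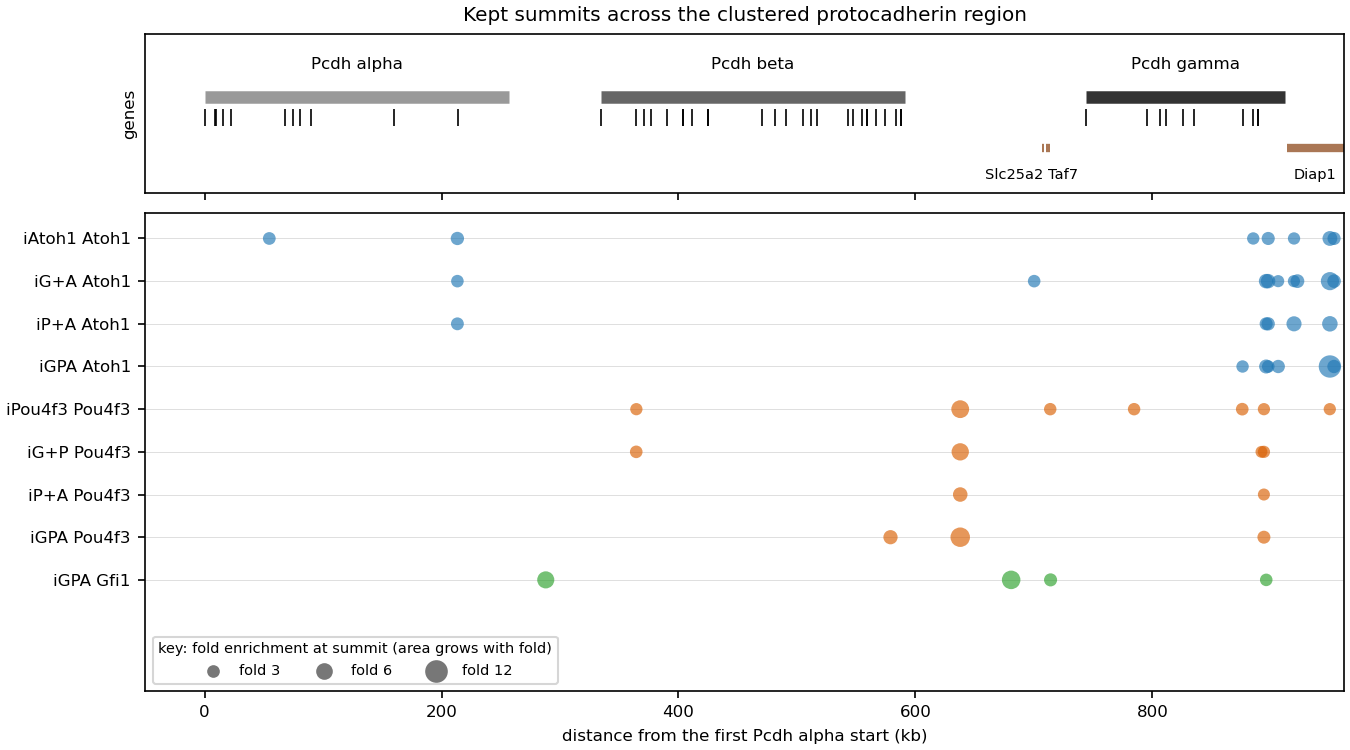
Kept summits across the region. The horizontal axis is the distance in kb from the first alpha start; the upper track shows the 3 clusters, the annotated member starts (ticks) and the genes Slc25a2, Taf7 and Diap1, and the lower track has 1 row for each of the 9 lists, with point area growing with fold enrichment. Atoh1 summits crowd at the right end, with 22 of 27 in the last 86.5 kb, while the row of points near 638 kb belongs to all 4 Pou4f3 lists.

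**Figure D2:**
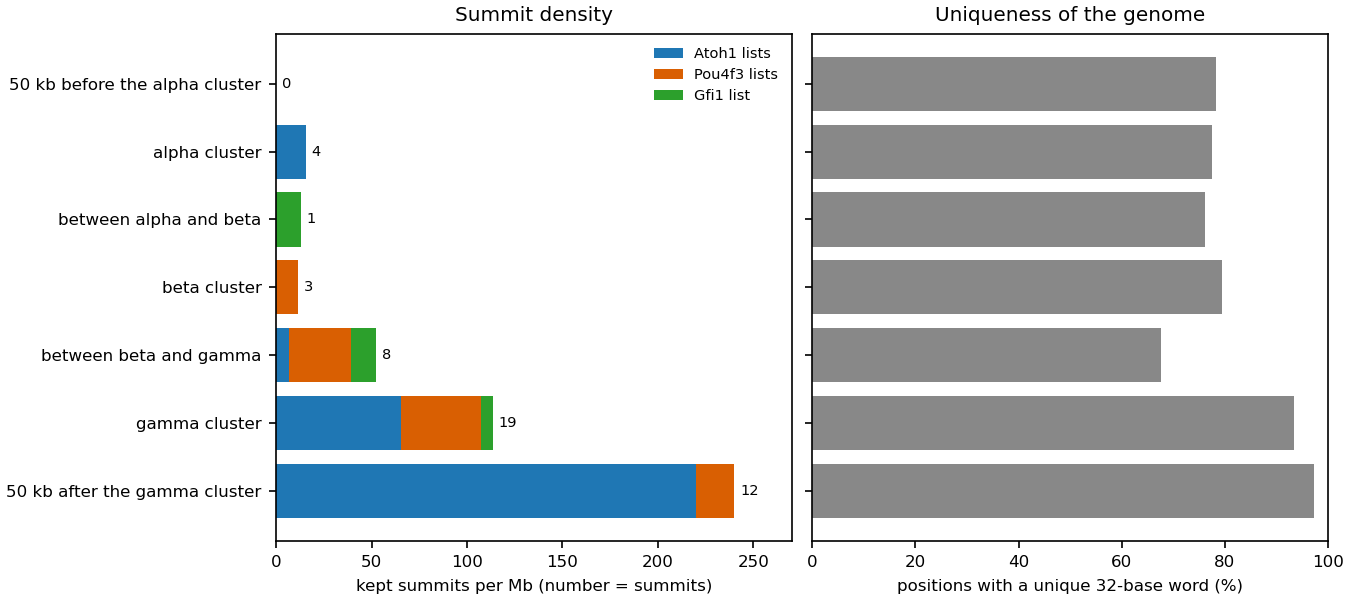
Left, kept summits per Mb in 7 stretches of the region, colored by factor, with the number of summits beside each bar. Right, the percentage of positions whose 32-base word occurs once in the genome; the density rose from 11.7 per Mb in beta to 240.0 per Mb in the 50 kb after gamma, and the 2 most unique stretches were those with most summits.

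The share of each list that fell in the region was counted list by list. It held 7 iAtoh1 summits (0.0450% of the list, 95% exact interval 0.0181 to 0.0926), 9 iG+A summits (0.0439%, 0.0201 to 0.0833), 5 iP+A Atoh1 summits (0.0264%, 0.00857 to 0.0616) and 6 iGPA Atoh1 summits (0.0229%, 0.00839 to 0.0498). The 4 Atoh1 intervals overlapped. It held 7 iPou4f3 summits (0.0312%, 0.0125 to 0.0643), 4 iG+P summits (0.0123%, 0.00334 to 0.0314), 2 iP+A Pou4f3 summits (0.0117%, 0.00142 to 0.0423) and 3 iGPA Pou4f3 summits (0.0160%, 0.0033 to 0.0467). These intervals overlapped too. The Gfi1 list placed 4 of its 3012 summits there (0.133%, 0.0362 to 0.340).

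Against the whole of chromosome 18, the Atoh1 lists together had 26.7 summits per Mb in the region and 23.7 on the chromosome, a ratio of 1.13. This ratio depends on the margins, as 11 of the 27 Atoh1 summits lay in the 50 kb after gamma. Without the margins 16 were left in 912 kb, a lower density than that of the chromosome. The Pou4f3 lists had 15.8 per Mb in the region and 34.2 on the chromosome, a ratio of 0.463. The Gfi1 list had 3.95 per Mb against 0.879, a ratio of 4.50 that rested on 4 summits. All 9 lists together had 46.5 per Mb against 58.8, a ratio of 0.791. As a description, the genome was also laid out in 2522 tiles of the region's length. The region's 27 Atoh1 summits were at or above the count of 64.1% of tiles (median 18), its 16 Pou4f3 summits at or above that of 26.6% (median 30), and its 4 Gfi1 summits at or above that of 96.3% (median 1).

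Few member starts had a summit. A member gene was counted when a kept summit lay within 1 kb of any of its annotated starts, and the same count over all annotated genes gives the background. In iAtoh1 2 of 25 members were counted, Pcdha11 and Pcdhgc5, against 8.69% of all genes. In iG+A 1 member was counted, Pcdha11 (background 14.4%), in iP+A Atoh1 also 1, Pcdha11 (12.8%), and in iGPA Atoh1 1, Pcdhgc5 (17.9%). In iPou4f3 2 members were counted, Pcdhb2 and Pcdhgc5 (17.7%), and in iG+P 1, Pcdhb2 (14.7%). No member was counted in iP+A Pou4f3 (10.0%), iGPA Pou4f3 (7.01%) or Gfi1 (3.32%). A count of 0 of 25 allows a share of up to 12%, so it cannot be told apart from these backgrounds.

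Over any of the 9 lists, 3 of 25 members (12%) had a summit at a start against 34.0% of all genes. The other 22 had none, among them 21 of the 22 beta genes. Genes with many annotated starts have more chances to be counted. Of the 19 members with a single transcript, 1 was counted, against 18.7% of all genes with a single transcript. By start, 4 of 47 member starts had a summit within 1 kb (8.51%, 95% exact interval 2.37 to 20.4), against 36.0% of all distinct annotated starts.

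**Figure D3:**
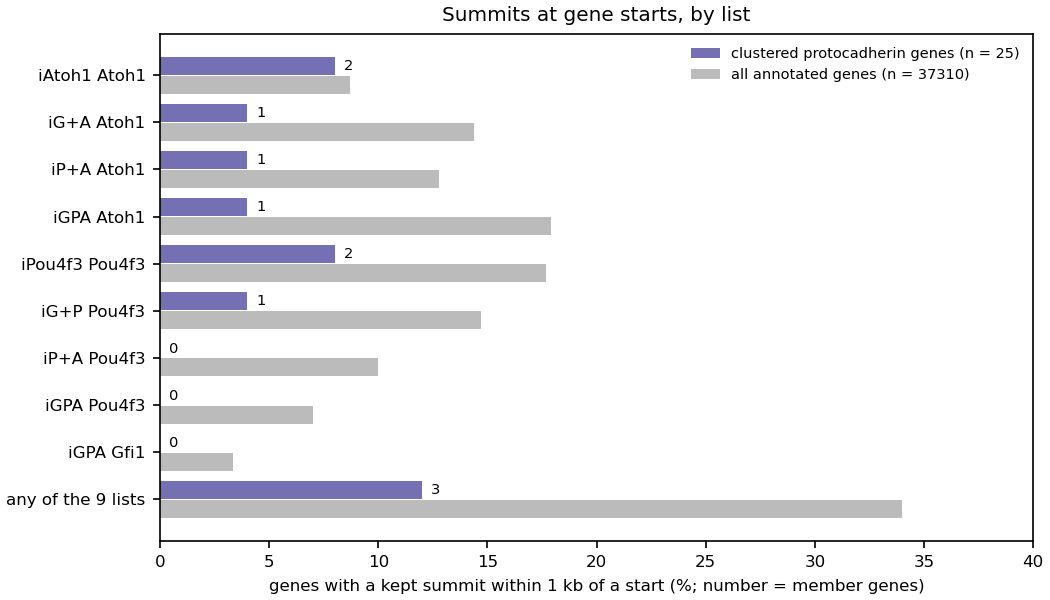
Percentage of the 25 clustered protocadherin genes (purple) and of all 37310 annotated genes (gray) with a kept summit within 1 kb of a start, by list; numbers give the member genes. The member bar was shorter than the gray bar in each list, with the iAtoh1 pair (2 members, 8.69%) closest together.

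The distance to the nearest summit differed by cluster. For the 11 alpha starts its median was 35.3 kb, for the 26 beta starts 30.6 kb and for the 10 gamma starts 16.4 kb. The farthest beta start was 106 kb from any summit in any list. Around the starts themselves most of the sequence was unique: within 1 kb of a start the share of unique 32-base words had a median of 89.5% in alpha, 99.6% in beta and 98.3% in gamma, and was never below 82.0%, 79.0% and 88.8% in these clusters.

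The alpha site lay 282 bp before the start of Pcdha11-202, the last alpha variable exon, at chr18:37303191-37303509. The fold enrichment, which is the ratio of ChIP fragments to local background at the summit after 1 is added to each, was 3.42 in iAtoh1, 3.12 in iP+A and 2.94 in iG+A, and the 3 summits fell within 19 bp of each other. The iGPA Atoh1 list had no summit there, and its closest to this start was 379563 bp away. The site was thus found in 3 of 4 Atoh1 lists, at folds close to the medians of those lists (3.18, 3.12 and 3.20). Counting intervals of the 3 folds overlapped, from 2.30 to 4.92 in iAtoh1, 2.11 to 4.46 in iP+A and 1.87 to 4.42 in iG+A. The 250 bp around the summit were 68.4% G and C and held the looser E-box CAGATG or CAGCTG. In GRCm38.p6 the last alpha gene by order is Pcdhac2, a C-type isoform; C-type isoforms are expressed in most cells of a neuron class and not by random choice. Whether Pcdha11-202 encodes it was not checked by sequence.

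The other alpha summit was in iAtoh1 only, at fold 3.05, in an intron 12966 bp before the start of Pcdha11-207. No 32-base word in its 300 bp window occurs once in the genome, so the position of that summit is uncertain. The 31.5 kb that hold the shared alpha exons contained 0 summits.

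In the beta cluster, Pcdhb2 was the single gene with a summit at its start. The iG+P summit lay 182 bp before the start at fold 2.96, and the iPou4f3 summit lay 78 bp before it at fold 2.73. In iPou4f3 this fold was higher than or equal to that of 17.7% of the kept peaks, so the peak was among the weaker ones. No Pou4f3 summit was near this start in iP+A or iGPA, where the closest were 273306 bp and 214439 bp away. A further beta summit came from the iGPA Pou4f3 list, at fold 4.08 and 4373 bp before the start of Pcdhb21, with the Pou4f pattern ATAATTAAT within 1 mismatch.

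The strongest Pou4f3 site of the region stood alone between beta and gamma, at chr18:37727641-37727949, 49782 bp beyond the start of Pcdhb22, the nearest annotated start. The fold was highest in iGPA at 8.59, followed by iPou4f3 at 7.01, iG+P at 6.57 and iP+A at 4.30. The 4 summits lay within 9 bp. The iGPA value came from 58 ChIP fragments and a local background of 5.87 and the iP+A value from 37 and 7.83, with 1 added to each number before the ratio is taken. Counting intervals of the fold ran from 6.56 to 11.1 in iGPA and from 3.06 to 5.89 in iP+A and did not overlap, but the spread between replicates is not known. By fold within its own list, the peak ranked 1571 in iG+P, 1609 in iPou4f3, 1871 in iGPA and 2461 in iP+A. It was higher than or equal to 95.2%, 92.8%, 90.0% and 85.6% of those lists, so iGPA was not the highest by rank. The median fold of the iGPA list was 4.08, against 2.96 in iG+P, 3.33 in iPou4f3 and 3.17 in iP+A. The site was intergenic, had no summit from an Atoh1 or the Gfi1 list, did not hold the Pou4f pattern, and 52.1% of its 32-base words were unique.

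The remaining summits of that gap were scattered. Gfi1 had a summit at fold 7.70 in intergenic sequence 27597 bp beyond the start of Slc25a2, a mitochondrial carrier gene. The 100 bp around this summit form a tandem repeat with a 5-base unit, in which 86% of positions equaled the position 1 unit further on. Another Gfi1 summit, at fold 6.38, lay between alpha and beta, 46715 bp before the start of Pcdhb1. These were the highest Gfi1 folds in the region and were named after their values were seen.

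At the start of Taf7, an intronless gene for a subunit of the basal factor TFIID that lies just before gamma, iPou4f3 had a summit at fold 2.85 and Gfi1 at fold 3.27. The summits were 284 bp apart, and the Gfi1 summit lay 188 bp before the start. An iG+A summit at fold 2.94 lay 8174 bp beyond the Slc25a2 start, in a window with no unique 32-base word.

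In gamma the annotated starts of the early variable exons had no summit within 1 kb. Variable exons without an annotated start could not be examined. One iPou4f3 summit at fold 2.85 lay in this part, in a Pcdhgc5 intron 10803 bp before the start of Pcdhgc5-206. The first 6 of the 10 annotated starts were 10.8 to 40.9 kb from any summit in any list. Summits appeared at the start of Pcdhgc5-208, where iPou4f3 had a summit 223 bp before the start at fold 2.98 and iGPA Atoh1 one 56 bp beyond it at fold 2.83. At the next start, Pcdhgc5-205, iAtoh1 had a summit 403 bp beyond the start, in a UTR of Pcdhgc5, at fold 2.81. Pcdhgc5-208 was thus marked in 1 Atoh1 and 1 Pou4f3 list and Pcdhgc5-205 in 1 Atoh1 list, at low folds. The last annotated starts, Pcdhgc5-203 and Pcdhgc5-209, had no summit within 1 kb, and the nearest in any list were 2863 bp and 2755 bp away. In GRCm38.p6 the last gamma genes by order are Pcdhgc3, Pcdhgc4 and Pcdhgc5, the C-type isoforms. The match of names to exons was not checked by sequence.

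The stretch from 1 kb before Pcdhgc5-208 to the end of the region, which was delimited after the summits were seen, is 86.5 kb long or 8.55% of the region. It held 30 of the 47 summits and 22 of the 27 Atoh1 summits, but 7 of the 16 Pou4f3 summits. The 30 summits fell at 11 of the 21 merged sites, since summits of several lists can mark the same site. Within gamma, the 16.9 kb from the first shared exon to the end held 10 summits, 9 of Atoh1 and 1 of Gfi1, whereas the 151 kb of variable exons held 9, of which 7 were Pou4f3. All 7 kept Pou4f3 summits of gamma thus lay before the first shared exon, and 9 of its 11 Atoh1 summits after it. These come from few sites. Of the 7 Pou4f3 summits, 4 were of 1 site that lay 540 bp before that exon. The 9 Atoh1 summits came from sites found in 3, 4 and 2 Atoh1 lists. A called iPou4f3 peak past that exon, at fold 2.82, was not among the kept ones.

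A weak Pou4f3 site at chr18:37983974-37984300 was present in all 4 Pou4f3 lists. Its fold was 3.20 in iGPA, 2.74 in iG+P, 2.73 in iPou4f3 and 2.60 in iP+A, with the 4 summits within 27 bp. The folds were alike and low, and none exceeded that of more than 35.3% of the peaks in its list. The site lay 540 bp before the first shared exon, in a UTR of Pcdhgc5, and held the Pou4f pattern. Its nearest start was that of Pcdhgc5-209, 4827 bp before it. With the lists at equal length it was left in 1 list, and it was left in 0 when peaks under a −log10 p of 10 were dropped. A single iG+P summit at fold 2.52 also lay in a UTR of Pcdhgc5, 2755 bp beyond the Pcdhgc5-209 start.

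Past the first shared exon followed 3 Atoh1 sites in the introns of gamma. The first, 1312 bp beyond the start of that exon at chr18:37985837-37986245, had folds of 4.27 in iG+A, 3.94 in iGPA and 3.23 in iP+A, and a Gfi1 summit at fold 2.92. It was absent from the iAtoh1 list. It held the stricter E-box pattern of 10 letters. Of the 4 Gfi1 sites of the region, 1 had an Atoh1 summit, namely this site. The same share over the genome was not counted, so 1 of 4 is a description only. The Gfi1 peak of this site was among the weakest of its list, which rested on 1 ChIP library. It ranked 2990 of 3012 by p, and its −log10 q was 1.42, where the lowest of the list was 1.33.

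The second, 2976 bp beyond the start of the exon at chr18:37987501-37987948, was found in all 4 Atoh1 lists. Its folds were 4.27 in iG+A, 3.44 in iP+A, 3.30 in iAtoh1 and 2.95 in iGPA. The iGPA fold was the lowest of the 4, and their counting intervals overlapped, the extremes being 1.92 to 4.37 in iGPA and 2.95 to 6.01 in iG+A. The summits of this site were spread over 148 bp. The last, at chr18:37996020-37996373 between the second and the last shared exon, had folds of 2.67 in iG+A and 3.45 in iGPA.

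**Figure D4:**
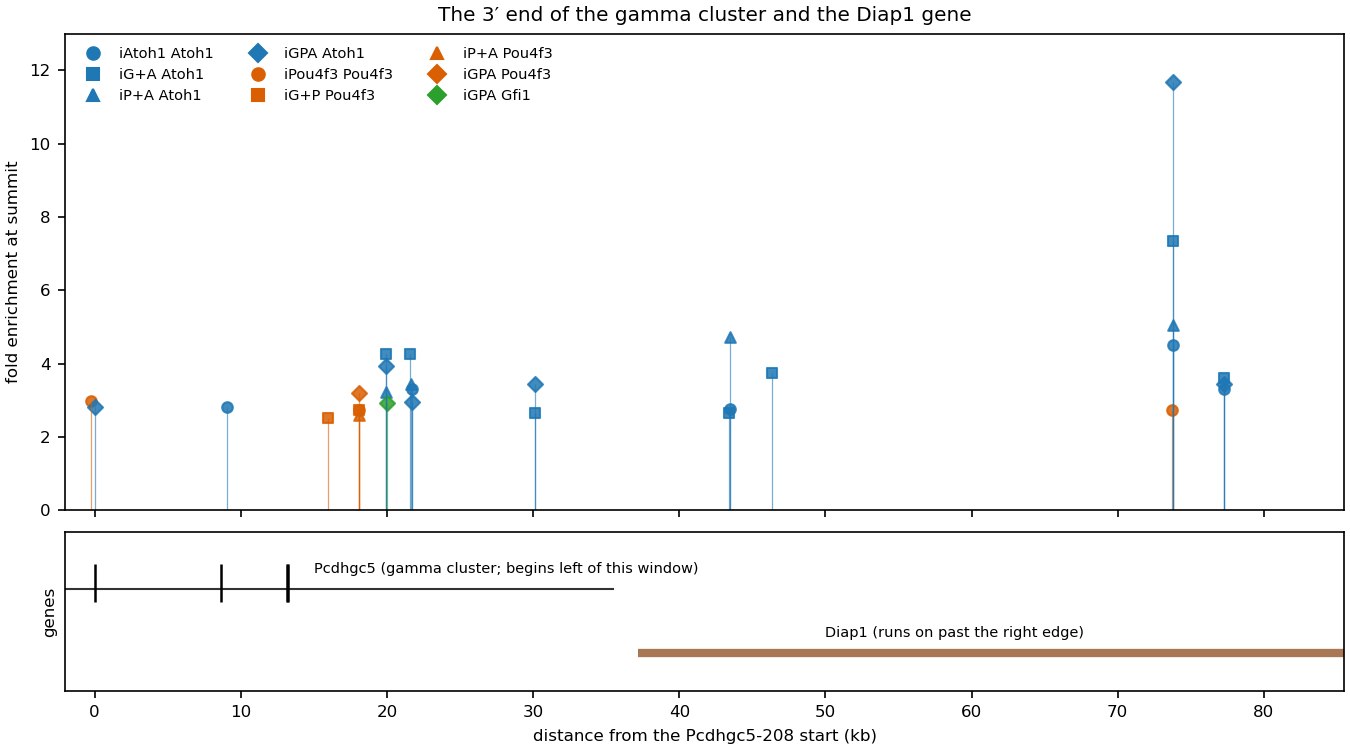
Fold enrichment of each kept summit (vertical axis) from the start of Pcdhgc5-208 to the right edge of the region, against the distance from that start in kb; color gives the factor, marker shape the line, and the ticks on the Pcdhgc5 line the annotated starts. The iGPA Atoh1 point at fold 11.7 in Diap1 stands above the other points, and Pou4f3 points at 16 to 18 kb come before the Atoh1 and Gfi1 points at 20 kb and beyond.

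The strongest Atoh1 site of the region was outside the gamma cluster, 38.3 kb past its end, in an intron of Diap1, which encodes a formin that builds unbranched actin filaments. At chr18:38039603-38040003 the fold was highest in iGPA at 11.7, followed by iG+A at 7.34, iP+A at 5.06 and iAtoh1 at 4.52. A Pou4f3 summit was there in iPou4f3 at fold 2.73, and a called Pou4f3 peak of iGPA at fold 3.20 was not among the kept ones. Of all 21 sites this was the one found in most lists, 5 of 9. The iGPA fold came from 94 fragments and a background of 7.13 and the iAtoh1 fold from 36 and 7.19, again with 1 added to each number. Counting intervals of the fold ran from 9.47 to 14.3 in iGPA, 3.20 to 6.21 in iAtoh1, 3.73 to 6.71 in iP+A and 5.55 to 9.54 in iG+A. The iGPA interval overlapped that of 1 other Atoh1 list, iG+A, by a margin from 9.47 to 9.54, and replicate spread is not known. The peak ranked 658 by fold in the iGPA list, higher than or equal to 97.5% of it.

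Another 3 Atoh1 sites lay in Diap1 introns. At chr18:38043158-38043514 the fold was 3.30 in iAtoh1, 3.60 in iG+A and 3.45 in iGPA, and the site held both the stricter E-box and the CTCF core pattern. At chr18:38009312-38009699, 8.01 kb past the gamma end, it was 4.73 in iP+A, 2.77 in iAtoh1 and 2.67 in iG+A, and iGPA had no summit. The iP+A counting interval was 3.46 to 6.34 and that of iAtoh1 1.80 to 4.10, so they overlapped. A summit in iG+A alone, at fold 3.74, lay 633 bp inside Diap1-006. The annotation assigns these sites to Diap1 by position, and no measurement here links them to either gene.

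**Figure D5:**
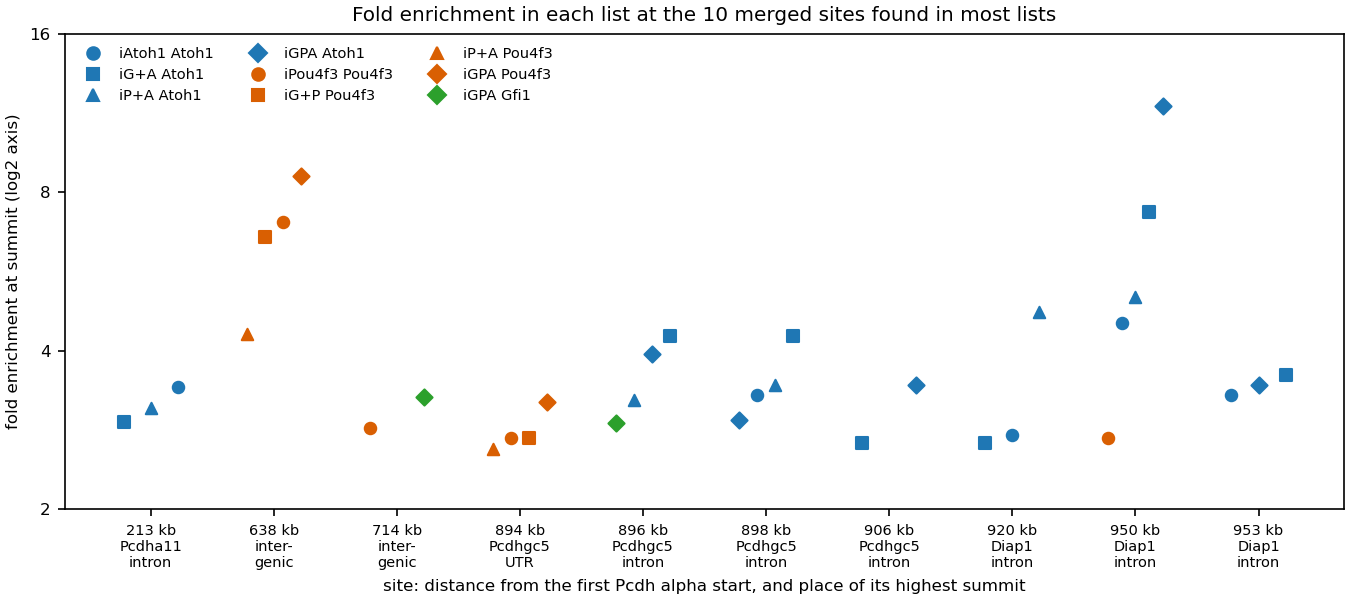
Fold enrichment (log2 axis) in each list at the 10 merged sites found in most lists, ordered by distance from the first alpha start and labeled with the place of the highest summit; a list without a kept summit has no point. Folds passed 5 at 2 sites only, the intergenic Pou4f3 site at 638 kb (4.30 to 8.59) and the Diap1 site at 950 kb (2.73 to 11.7).

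Joined where 300 bp windows shared at least 1 bp, the 47 summits made 21 sites, of which 9 were in 1 list and 12 in 2 or more. Atoh1 summits were at 12 sites. Of these, 2 were in all 4 Atoh1 lists, against 10.4% of all Atoh1 sites in the genome, and 5 were in 1 list, against 55.4%. Pou4f3 summits were at 9 sites, of which 2 were in all 4 Pou4f3 lists (genome 14.5%) and 6 in 1 list (genome 54.1%). With so few sites these shares do not stand apart from the background. Summits of Atoh1 and Pou4f3 met at 2 sites, Pcdhgc5-208 and the Diap1 site, and in iGPA, where both were mapped in the same line, at 0 of 6 Atoh1 sites. The same share over the genome was not counted here, so 0 of 6 is given as a description only. It also depends on the kept lists, as a called iGPA Pou4f3 peak at the Diap1 site, at fold 3.20, was not kept. In iP+A, where both were mapped too, the 2 Pou4f3 summits were at sites without an Atoh1 summit. The genome share was not counted for iP+A either, so this is also a description only.

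Atoh1 alone and Atoh1 with both cofactors were set side by side. The iAtoh1 list had 7 sites in the region and the iGPA Atoh1 list 6, of which 3 were shared. Over the genome, 52.5% of the iAtoh1 sites were shared with iGPA and 31.1% of the iGPA sites with iAtoh1, so 3 of 7 and 3 of 6 are given as a description. The shared ones were the second gamma intron site and the Diap1 sites at 38.3 and 41.8 kb past the gamma end. In iAtoh1 but not iGPA were both alpha sites, Pcdhgc5-205 and the first Diap1 site, and in iGPA but not iAtoh1 were Pcdhgc5-208 and the first and last gamma intron sites. At the low folds of most of these sites, absence from a list means only that no peak was kept there.

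The letters of the factors' patterns were looked for within 250 bp centered on each summit, on either strand. The looser E-box, CAGATG or CAGCTG, which the stricter pattern partly overlaps, was present at 23 of 27 Atoh1 summits in the region (85.2%) and at 65.8% of all Atoh1 summits. By site it was present at 8 of 12 Atoh1 sites (66.7%). It was present at 2 of 16 Pou4f3 summits (12.5%, all Pou4f3 summits 26.3%). The stricter E-box was present at 6 of 27 Atoh1 summits (22.2%, all 16.6%). The Pou4f pattern was present at 5 of 16 Pou4f3 summits (31.2%, all 44.1%) and at 0 of 27 Atoh1 summits (all 7.46%).

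The Gfi1 pattern, AATCACAGC or AATCACTGC, was at 0 of 4 Gfi1 summits, and over the whole list at 7.01%. The CTCF core pattern was at 3 of 27 Atoh1 summits (11.1%, all 2.65%), all 3 of them summits of 1 Diap1 site, and at 0 of the 16 Pou4f3 and 4 Gfi1 summits. Summits of several lists at 1 site share their sequence, so these counts come from 12 Atoh1 and 9 Pou4f3 sites and not from independent places.

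Genes outside the clusters but of the same family or pathway were counted in the same way, from lists of symbols. Of 12 non-clustered protocadherins, 4 had a summit within 1 kb of a start in any list (33.3%, against 34.0% of all genes). Pcdh7 had one in 6 lists, with folds of 3.07 in iG+A, 4.06 in iGPA Atoh1, 3.64 in iGPA Pou4f3, 3.17 in iP+A Pou4f3, 3.17 in iG+P and 2.97 in iPou4f3. Pcdh18 had one in iPou4f3 and iP+A Pou4f3, at fold 4.75 in both. Pcdh10 and Pcdh19 had 3 and 1 lists, all below fold 3.

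The 12 genes known to act on the clusters encode the insulator protein CTCF, cohesin and factors that act on it, and chromatin and DNA methylation factors. Of these, 10 had a summit at a start in any list (83.3%, against 34.0% of all genes). Ctcf had one in 7 of 9 lists, with folds from 2.63 in iG+P to 4.40 in iAtoh1 and 4.18 in Gfi1. Stag1, a cohesin subunit, had one in 8 lists, from 4.13 in iPou4f3 to 7.34 in iGPA Atoh1. Rad21, another cohesin subunit, and Nipbl, a cohesin loader, had summits in the 4 Pou4f3 lists and in no Atoh1 list. Smc1a and Stag2 had none. Hells, a chromatin remodeler needed for DNA methylation, reached fold 7.11 in iPou4f3.

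Of 8 genes for partners of the cytoplasmic tails, 6 had a summit at a start in any list (75%, against 34.0% of all genes). Fyn, a Src-family kinase, had one in 8 of 9 lists with folds from 4.81 in iG+A to 13.9 in iGPA Atoh1 and 12.1 in both iPou4f3 and iGPA Pou4f3. Nckap1, of the WAVE complex that drives actin branching, had one in 7 lists, up to 8.00 in iGPA Atoh1. Ptk2b and Ret had none. These lists are small and many of their genes have several annotated starts, so their shares are given beside 34.0% as a description.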

How the data were processed

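ChIP-seq libraries of Atoh1, Pou4f3 and Gfi1 and their inputs were prepared from Dox-treated EBs of 6 lines. The authors state that they trimmed the reads (Trimmomatic), aligned them to mm9 (Bowtie2), removed duplicates (Picard), poorly mapped reads (SAMtools) and blacklisted regions (bedtools), and called peaks with MACS2 on merged ChIP against merged input libraries. Total read counts per library were not used here, so depth per library is not given. The deposited fold enrichment is a ratio of ChIP fragments to local background at the summit, with 1 added to each, and the p and q values, deposited as −log10, are the peak caller's own. Each list stopped at a −log10 q between 1.30 and 1.41. The signal column of the deposited summit lists has no stated definition and was not used. The authors left 14.1% to 35.5% of a list's called peaks out of its summits; the criterion is not given in the sources used here.

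Lists held 3012 (Gfi1) to 32632 (iG+P) kept summits. Summits were placed on the GENCODE vM1 annotation of NCBIM37, the assembly mm9, and all peaks lay within its chromosomes. Windows of 300 bp around summits were joined into sites where they shared at least 1 bp. ChIP fragments and local background were recovered from fold and −log10 p within 0.001 for 99.8% to 100% of the first 500 peaks of each list, and counting intervals are exact Poisson (fold, background held fixed) or Clopper-Pearson (shares) at 95%. No comparison was tested, since lists carry no replicate values. The site counts were checked on simulated lists. Named in the text are members with a summit within 1 kb of a start, the 10 sites found in most lists, ties by fold, and genes of the comparison lists; other sites are said to be named after their values were seen or are given to complete a count. The split of members into C-type and alternate isoforms that had been planned could not be made, as the annotation does not name single gamma exons. Members and lists were chosen with earlier results of these data known. Python 3.11.15, numpy 2.4.6, pandas 2.3.3, scipy 1.17.1 and matplotlib 3.10.9 were used.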

Additional observations from a re-analysis of the deposited data

How the results depend on the processing

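With the peaks limited to a −log10 p of at least 10, the Atoh1 summits of the region fell to 8, the Pou4f3 summits to 5, the Gfi1 summits to 2, all summits to 15 and the merged sites to 8, and 0 members kept a summit at a start, in any list, in the Atoh1 lists and in the Pou4f3 lists. The region without its margins held 16 Atoh1 summits. In lists of equal length (that of the shortest Atoh1 or Pou4f3 list, with Gfi1 whole) 7 Pou4f3 summits were left. Counted from the most 5′ start of each gene, the members with a summit were 1 in any list, 0 in the Atoh1 lists and 1 in the Pou4f3 lists. Over the whole lists, 30.4% (iAtoh1) to 54.6% (iGPA Pou4f3) of kept peaks had a −log10 p of at least 10. The share of all genes was not counted at that limit or from the most 5′ start. The member counts at these settings are therefore a description only. The Gfi1 list alone gave 0 members. The other 29 of 43 alternatives stayed within 1.5 times the reported count: all called peaks, windows of 100 bp and 1000 bp, and distances of 500 bp and 2 kb were among them. For single named genes and sites, 29 of 45 alternatives stayed within 1.5 times and 16 moved, 11 of them at a −log10 p of at least 10. At that limit the sites at the last alpha start, at Taf7 and 540 bp before the first shared gamma exon were left in 0 lists. So were those at the last gamma intron and at 41.8 kb past gamma. In lists of equal length the sites at Taf7, 540 bp before the first shared gamma exon and at the last gamma intron were left in 1 list each.

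No paired analysis was possible because every list was called on merged replicates, and for the same reason leaving out a replicate was not run. Of the 47 summits, 32 had a −log10 p under 10.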

Other observations

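Assigned to the nearest annotated start, kept summits of the Pou4f3 lists divided as follows between the clustered and the non-clustered protocadherins: the 25 members had 4 in iPou4f3, 4 in iG+P, 3 in iGPA and 2 in iP+A, and the 12 non-clustered genes had 28, 55, 35 and 21. In the Atoh1 lists the members had 4 summits in iAtoh1, 4 in iG+A, 3 in iGPA and 3 in iP+A, and the non-clustered genes 4, 9, 11 and 9. Per gene, in the list orders above, the members had 0.16, 0.16, 0.12 and 0.08 Pou4f3 summits. The non-clustered genes had 2.33, 4.58, 2.92 and 1.75, and all 33924 genes 0.661, 0.962, 0.553 and 0.504. For Atoh1 the members had 0.16, 0.16, 0.12 and 0.12 and the non-clustered genes 0.333, 0.75, 0.917 and 0.75. All genes had 0.459, 0.604, 0.773 and 0.559, so in iAtoh1 the non-clustered genes were below all genes. The length of sequence assigned to each gene was not measured.

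In the region 2 called peaks were not kept by the authors, both of Pou4f3: the iGPA peak in Diap1 at fold 3.20 and an iPou4f3 peak at fold 2.82 in a gamma intron, whose summit lay at 37986434, between the first and the second Atoh1 site past the first shared exon.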
